A study of Mus musculus with 9 samples.

Results

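This report describes 45 genes of DNA replication in mouse ovaries at 3 successive postnatal days (PD). The genes were chosen by name as the enzymes and regulators that license origins, open the double helix, copy it and supply its nucleotides. All 45 were found among the 52025 genes of each expression table, and all 45 were among the 15495 genes that were tested. The study set out to follow the ovary while fluid-filled cavities, the antra, first form in its follicles. Untreated mice of the Kunming strain, an outbred stock, were sampled at PD14, PD15 and PD16, with 3 RNA-Seq libraries at each day and 9 in all. No knockout, transgene or drug entered these groups, so age was the only labelled difference. In the labels the tissue is ovary but the source is given as granulosa cells, whereas the study describes ovaries, with a separate ovary behind each library. Nothing in the labels ties libraries of different days to the same animal or litter.

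Expression was deposited as FPKM, a fragment count scaled by gene length and by the total of mapped fragments, which allows levels of different genes to be compared. The depth recovered from the smallest FPKM steps ran from 20370000 to 28730000 mapped fragments per library, and mitochondrial transcripts made up 5.19% to 6.27% of the summed FPKM. Markers of several ovarian cell types were present besides the granulosa cell genes Inha and Amh, whose PD16 means were 2152 and 245 FPKM. The oocyte gene Gdf9 stood at a PD16 mean of 212 FPKM and the zona pellucida gene Zp3 at 276 FPKM. The theca gene Cyp17a1 was at 37.1 FPKM and the stromal gene Dcn at 53.5 FPKM on the same day. The values are therefore those of a mixed tissue, in which fewer cells of a type and less RNA per cell cannot be told apart.

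DNA is copied once per cell cycle, in S phase. The origin recognition complex, with CDC6 and CDT1, loads the MCM helicase onto origins, and CDC45 and the GINS complex then turn the helicase on. DNA polymerase alpha with its primase starts each strand, polymerases delta and epsilon extend it on the sliding clamp PCNA, and flap endonuclease and ligase join the pieces of the lagging strand. Many of these genes are transcribed by the E2F family of factors once E cyclins and their kinase have inactivated the retinoblastoma protein. In the growing follicle, granulosa cells are the main dividing cells, while the oocyte is arrested in meiosis and does not replicate its nuclear DNA.

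The promoters of the genes were searched for the E2F site, since it is the element these genes are best known to share. A window of 300 bases, from 250 before to 50 after the transcription start, was available for 36 of the 45 genes from RefSeq (GRCm38.p6), as 42 windows. The letters searched on both strands were TTTCCCGC, TTTGGCGC, TTTCGCGC and TTTGCCGC, and matches on opposite strands may overlap. At least 1 such match stood in the windows of 14 of the 36 genes (38.9%), against 2.60% of all genes with a window and 4.78% of those whose symbol was among the tested genes. The 180 bases upstream of the start are shown for 5 genes that take part in successive steps, licensing (Orc1 and Cdc6), the helicase (Mcm5 and Mcm6) and the first polymerase (Pola1), each read 5′ to 3′ on the strand of the gene, with the E2F letters in capitals.
Orc1: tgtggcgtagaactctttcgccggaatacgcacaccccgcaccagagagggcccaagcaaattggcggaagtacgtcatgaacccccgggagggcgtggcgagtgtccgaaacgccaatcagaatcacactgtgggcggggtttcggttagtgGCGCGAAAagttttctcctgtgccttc
Cdc6: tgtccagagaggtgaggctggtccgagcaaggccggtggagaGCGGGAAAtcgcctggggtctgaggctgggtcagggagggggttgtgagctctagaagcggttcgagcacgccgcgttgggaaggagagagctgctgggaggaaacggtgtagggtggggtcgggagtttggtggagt
Mcm5: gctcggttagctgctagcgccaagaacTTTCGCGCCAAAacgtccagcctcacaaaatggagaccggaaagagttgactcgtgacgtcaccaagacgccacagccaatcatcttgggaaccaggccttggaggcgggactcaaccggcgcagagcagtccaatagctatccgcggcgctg
Mcm6: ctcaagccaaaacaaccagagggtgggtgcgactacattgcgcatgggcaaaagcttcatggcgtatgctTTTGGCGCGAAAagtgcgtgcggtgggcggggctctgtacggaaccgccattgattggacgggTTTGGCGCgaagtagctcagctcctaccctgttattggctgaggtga
Pola1: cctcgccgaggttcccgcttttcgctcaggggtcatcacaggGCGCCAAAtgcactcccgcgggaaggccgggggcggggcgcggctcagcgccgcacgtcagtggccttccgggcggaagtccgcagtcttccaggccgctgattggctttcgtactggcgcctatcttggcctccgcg
These stretches lie at chr4:108579274-108579453 on the plus strand (Orc1), chr11:98907971-98908150 on the plus strand (Cdc6), chr8:75109329-75109508 on the plus strand (Mcm5), chr1:128359706-128359885 on the minus strand (Mcm6) and chrX:93632156-93632335 on the minus strand (Pola1). The longer run of capitals in Mcm5 and the first in Mcm6 each hold 2 overlapping matches, and Mcm6 has a further match 47 bases before the start.

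The same letters were counted in the promoters of genes used later in the cycle. Of 22 mitosis genes with a window, 1 (4.55%) held an E2F match. The letters TTTGAA of the cell cycle gene homology region, an element known from promoters of mitotic genes, stood in 72.7% of the mitosis genes, in 13.9% of the replication genes, in 20.2% of all genes with a window and in 14.0% of those whose symbol was tested. CCAAT, the letters bound by the factor NF-Y, were found in 61.1% of the replication genes, 72.7% of the mitosis genes, 41.1% of all genes and 42.7% of those tested. A match of this kind is a description of the letters and not of a bound site. The median log2 change of the 14 genes with an E2F match was 0.14 to PD15 and 0.15 to PD16, and that of the 22 without was 0.09 and 0.18, so that the order of the groups differed between the days. Without replicate 3 of PD16 the PD16 medians were 0.27 and 0.29.

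As a group, the replication genes stood slightly higher at PD15 and PD16 than at PD14. Their summed level was 805, 834 and 859 FPKM in the PD14 libraries. It was 952, 938 and 917 FPKM at PD15, where every library lay above every PD14 library. At PD16 it was 987 and 1027 FPKM in replicates 1 and 2 but 804 FPKM in replicate 3, which was under the lowest PD14 library. The day means were 833 ± 26.9, 936 ± 17.5 and 939 ± 119 FPKM (SD, n = 3), so that PD15 was at 1.12 times and PD16 at 1.13 times the PD14 level. Without PD16 replicate 3 the PD16 level was 1.21 times that of PD14.

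**Figure D1:**
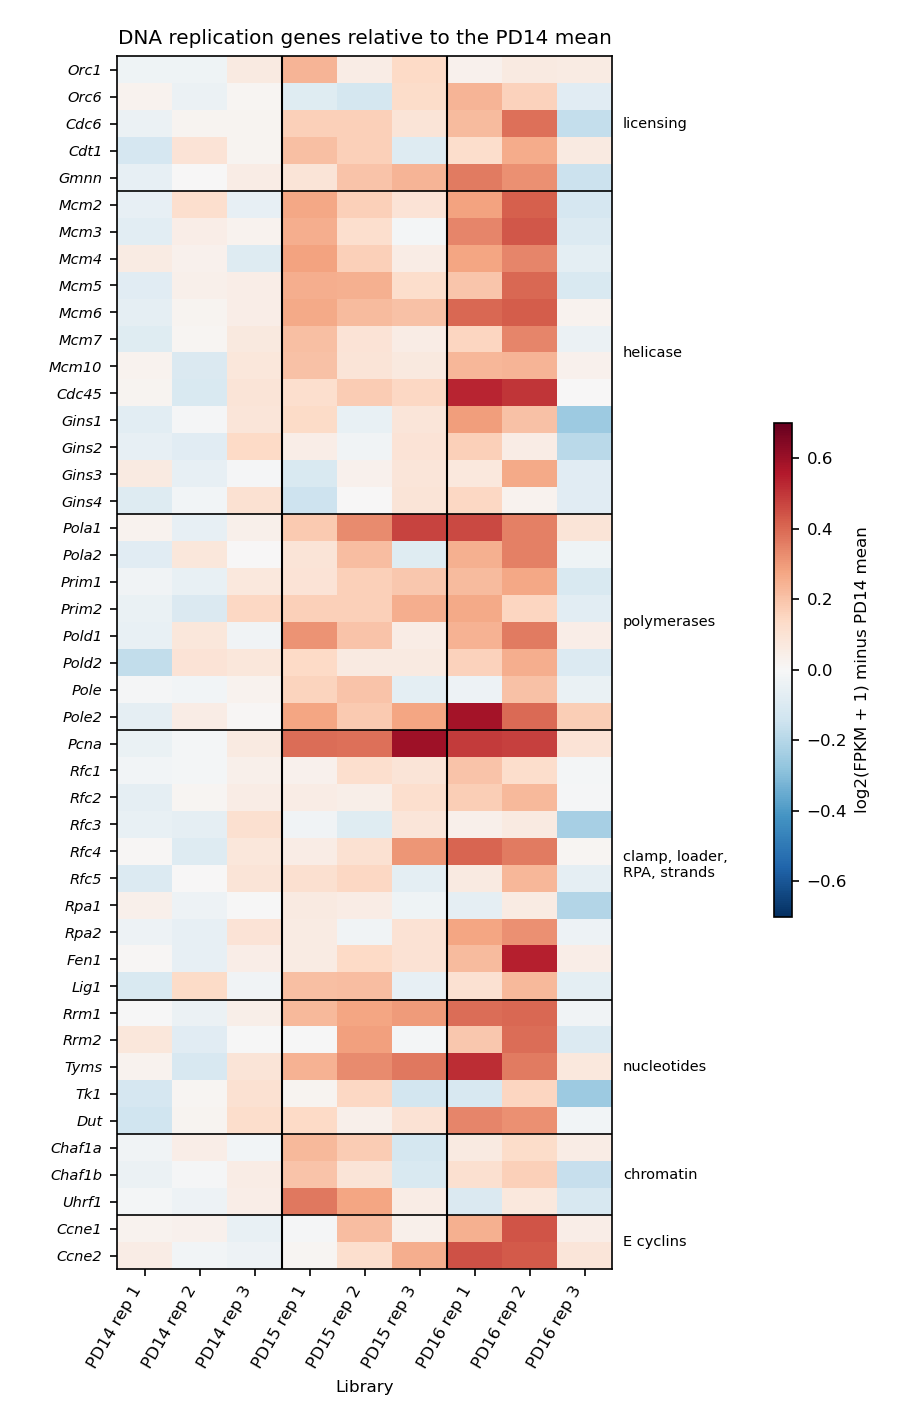
Heat map of the 45 DNA replication genes (rows, grouped by role) in the 9 libraries (columns, grouped by day). Colour is log2(FPKM + 1) minus the mean of the 3 PD14 libraries, red for higher and blue for lower; PD15 and PD16 replicates 1 and 2 are mostly red, whereas PD16 replicate 3 is pale or blue and lies below the PD14 mean in 31 genes.

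Gene by gene, the direction was shared but the single changes were small. Changes were tested with limma on log2(FPKM + 1), with p-values adjusted by Benjamini-Hochberg over all 15495 genes. From PD14 to PD15, 42 of the 45 genes were higher (median log2 change 0.12), against 51.9% of all genes and a median of 0.01. None of the 45 passed an adjusted p of 0.05 in limma, where 0.678% of all genes did, and 7 had an unadjusted p under 0.05, all of them higher at PD15, against a background of 14.7% of all genes in either direction. The 7 were Mcm6, Pola1, Pole2, Pcna, Rrm1, Tyms and Uhrf1.

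From PD14 to PD16, 41 of the 45 genes were higher (median log2 change 0.15), against 52.2% of all genes and a median of 0.01. Again 0 passed the adjusted limma test, against 4.25% of all genes, and the smallest adjusted p was 0.053 (Pole2). An unadjusted p under 0.05 was found for 12, all higher at PD16, against 22.8% of all genes in either direction. Between PD15 and PD16, 28 of the 45 genes were higher at PD16 (median log2 change 0.02), against 53.2% of all genes. None passed the adjusted limma test, where 0.729% of all genes did, and 1, Uhrf1, had an unadjusted p under 0.05, where 14.1% of all genes did. The F test over the 3 days called 0 of the 45 genes at an adjusted p of 0.05 (3.03% of all genes), and 8 had an unadjusted p under 0.05 (22.3% of all genes).

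The libraries of 2 days did not overlap in part of the genes. All 3 PD15 libraries lay above all 3 PD14 libraries in 14 of the 45 genes, against 10.4% of all genes. These were Cdc6, Gmnn, Mcm5, Mcm6, Cdc45, Pola1, Prim1, Prim2, Pole2, Pcna, Fen1, Rrm1, Tyms and Uhrf1. At PD16 the same held for 6 genes (Pola1, Pole2, Pcna, Chaf1a, Ccne1 and Ccne2), against 15.0% of all genes. In no gene of the 45 did the libraries of either later day all lie below those of PD14. Of all 15495 genes, 1581 did so at PD15 and 2091 at PD16. With 3 libraries against 3, an exact two-sided permutation test of a single gene cannot go below 0.1.

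**Figure D2:**
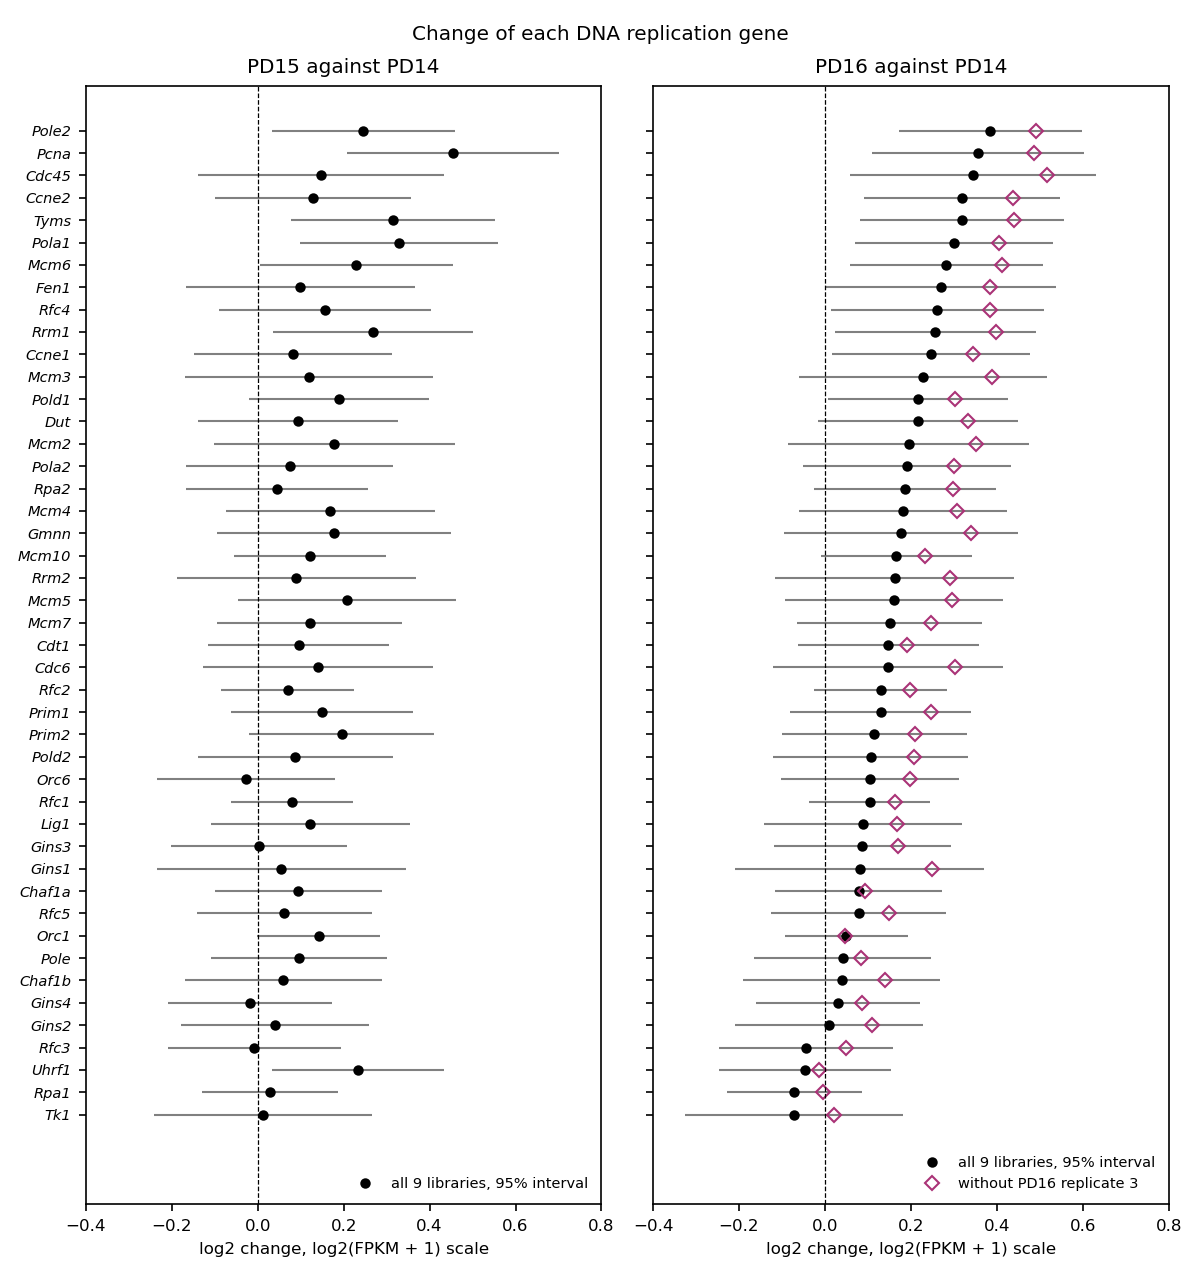
Log2 change of each of the 45 genes on the log2(FPKM + 1) scale from PD14 to PD15 (left) and from PD14 to PD16 (right); points are the limma estimates from 9 libraries, lines their 95% intervals, and open diamonds the estimates without PD16 replicate 3. Most points lie above 0 in both panels, 7 intervals on the left and 12 on the right lie wholly above 0, and the diamonds, drawn only in the right panel, lie to the right of the points for most genes.

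PD16 replicate 3 stood apart from the other PD16 libraries in these genes. It was the lowest PD16 library in 44 of the 45 genes, all but Orc1, whereas it was the lowest in 38.1% of all genes. It lay below the PD14 mean in 31 of the 45, against 50.6% of all genes. Its summed level was 79.8% of the mean of replicates 1 and 2. Its depth of 25440000 fragments and its mitochondrial share of 5.23% lay within the range of the other libraries. It had 14900 genes above 1 FPKM, against 14590 and 14638 in replicates 1 and 2, and 14818 to 14923 in the PD14 and PD15 libraries. Its summed marker level was 3150 FPKM for the 10 granulosa cell genes, against 3278 and 3716 FPKM in replicates 1 and 2, and it was the lowest PD16 library in 5 of the 10. The 8 theca and interstitial genes summed to 1293 FPKM, against 1768 and 1471 FPKM, but most of that sum is Hsd3b1, and the library was the lowest in 2 of the 8 and the highest in 3. Its blood cell markers summed to 66.3 FPKM, against 95.8 and 122 FPKM, and it was the lowest in 5 of 8. Its 12 oocyte genes summed to 1544 FPKM, against 1430 and 1482 FPKM, and it was the highest in 8 of the 12 and the lowest in 3. It was also the highest in 4 of the 5 tested oviduct and surface epithelium markers and the lowest in 1. Of all genes, it was the highest in 34.5%. The part of these differences in the low level of the replication genes was not tested.

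Replicates 1 and 2 of PD16 both lay above all PD14 libraries in 35 of the 45 genes, against 22.8% of all genes. Without replicate 3, limma called 8 of the 45 genes higher at PD16 than at PD14, where it called 2.65% of all genes, and the median log2 change was 0.25. An unadjusted p under 0.05 was then found for 31 of the 45, against 21.7% of all genes. The 8 genes were Gmnn, Mcm6, Cdc45, Pole2, Pcna, Rrm1, Tyms and Ccne2, with adjusted p-values from limma between 0.022 (Cdc45) and 0.044 (Gmnn). Between PD15 and PD16 the same 8 libraries gave 40 of 45 genes higher at PD16, 0 called (0.303% of all genes) and 16 with an unadjusted p under 0.05 (14.7% of all genes). Because the 3 days share an estimate of the spread, the comparison of PD15 with PD14 changed too: Pcna was called, with an adjusted p of 0.045 in limma (0.594% of all genes were called), and 15 genes had an unadjusted p under 0.05 (15.1% of all genes). The library was singled out for its low values in these same genes, so the calls made without it describe the other 8 libraries and are not independent evidence.

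**Figure D3:**
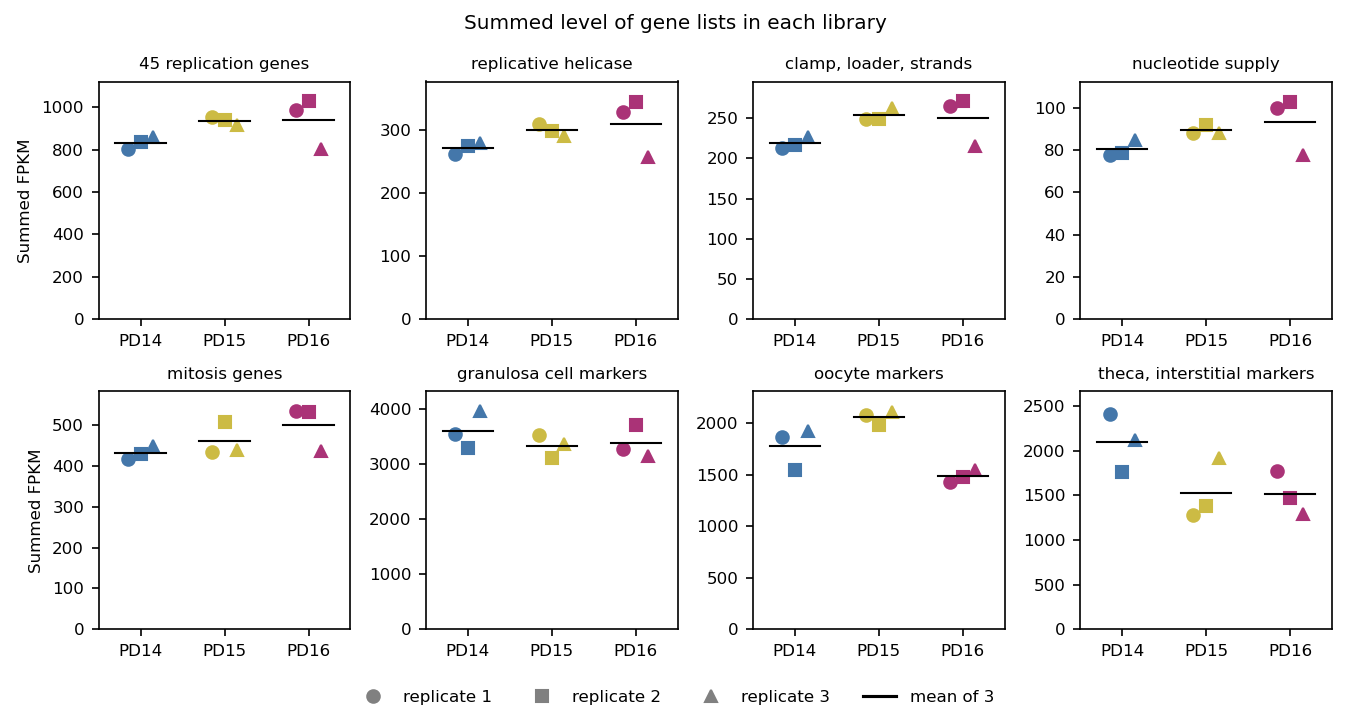
Summed FPKM of gene lists (vertical axes, each from 0) in the 3 libraries of each day, with circles, squares and triangles for replicates 1, 2 and 3 and a line for the day mean. The replication genes, 3 of their role groups and the mitosis genes share a low PD16 replicate 3, whereas the oocyte markers are lowest in the 3 PD16 libraries together, between 1430 and 1544 FPKM.

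The licensing genes prepare origins before S phase. Orc1 and Orc6 encode subunits of the origin recognition complex. Orc1 was at 4.82, 4.83 and 5.21 FPKM at PD14, at 6.01, 5.16 and 5.56 FPKM at PD15 and at 5.07, 5.22 and 5.20 FPKM at PD16, the tightest of all 45 genes between PD16 libraries. Its libraries overlapped between all days. Orc6 had day means of 13.5, 13.3 and 14.7 FPKM. Cdc6, which recruits the helicase, was at 4.85, 5.09 and 5.08 FPKM at PD14 and at 5.73, 5.73 and 5.40 FPKM at PD15, without overlap, and spread from 4.35 to 6.83 FPKM at PD16. Cdt1, its partner in loading, had day means of 15.6, 16.8 and 17.4 FPKM. Gmnn encodes geminin, the inhibitor of CDT1 that keeps an origin from being licensed again. It stood at 18.3, 19.2 and 19.9 FPKM at PD14, at 20.5, 22.1 and 22.8 FPKM at PD15, and at 24.9, 24.1 and 17.1 FPKM at PD16. For Gmnn the low PD16 replicate 3 lay under all PD14 libraries.

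The helicase genes ranged from some of the highest levels of the 45 to some of the lowest. Mcm2 to Mcm7 encode the 6 subunits of the ring, and their means over the 9 libraries ran from 21.3 FPKM (Mcm2) to 47.0 FPKM (Mcm6). Mcm6 was at 39.5, 41.9 and 42.8 FPKM at PD14, at 49.8, 48.4 and 47.8 FPKM at PD15 and at 55.0, 55.8 and 42.0 FPKM at PD16. Of the 6 later libraries, 5 lay above all of PD14, and PD16 replicate 3 lay within it. The log2 change of Mcm6 from PD14 to PD16 was 0.28 (SE 0.10, adjusted p = 0.133 in limma). Mcm5 stood at 29.8, 32.4 and 32.6 FPKM at PD14 and at 37.8, 37.8 and 34.4 FPKM at PD15, again without overlap. The other ring genes had log2 changes of 0.12 to 0.18 at PD15 and 0.15 to 0.23 at PD16, with overlapping libraries. Cdc45, which completes the active helicase, was at 10.9, 9.96 and 11.6 FPKM at PD14, at 11.8, 12.4 and 12.04 FPKM at PD15 and at 16.1, 15.7 and 10.8 FPKM at PD16. Its log2 change to PD16 was 0.34 (SE 0.13, adjusted p = 0.148 in limma), and 0.52 (adjusted p = 0.022) without PD16 replicate 3, the largest of the 45 in that fit. The 4 GINS genes had smaller log2 changes to PD16 of 0.08 (Gins1), 0.01 (Gins2), 0.09 (Gins3) and 0.03 (Gins4), which without PD16 replicate 3 were 0.25, 0.11, 0.17 and 0.09. Mcm10, which takes part in activating the assembled helicase, had day means of 5.66, 6.24 and 6.48 FPKM. Of the exon bases of Gins2, 67.3% are shared with another gene, Gse1, so its level is uncertain.

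Among the polymerase genes, Pole2 and Pola1 had the largest log2 changes. Pole2, the second subunit of the leading-strand polymerase epsilon, was at 7.32, 8.01 and 7.73 FPKM at PD14, at 9.52, 8.85 and 9.53 FPKM at PD15 and at 12.01, 10.4 and 8.79 FPKM at PD16. All 6 later libraries lay above all PD14 libraries. Its log2 change to PD16 was 0.39 (SE 0.09, adjusted p = 0.053 in limma), the largest of the 45 with all libraries. Pola1, the catalytic subunit of polymerase alpha, was at 6.55, 6.13 and 6.61 FPKM at PD14, at 7.44, 8.33 and 9.31 FPKM at PD15 and at 9.22, 8.47 and 6.90 FPKM at PD16. It too showed no overlap of PD14 with either later day, with a log2 change of 0.33 (SE 0.10, adjusted p = 0.187) to PD15 and of 0.30 (SE 0.10, adjusted p = 0.124) to PD16 in limma. Its partner Pola2 had day means of 16.3, 17.3 and 18.8 FPKM. The primase genes Prim1 and Prim2, which make the RNA primers, went from PD14 means of 10.7 and 5.77 FPKM to PD15 means of 11.995 and 6.73 FPKM without overlap of libraries, and stood at 11.9 and 6.34 FPKM at PD16. The polymerase delta genes Pold1 and Pold2 had log2 changes to PD16 of 0.22 and 0.11. Pole, the catalytic subunit of polymerase epsilon, stayed between 4.55 and 5.71 FPKM in the 9 libraries.

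Pcna, the sliding clamp that holds the polymerases on DNA, was the most abundant of the 45 genes. It was at 68.7, 70.2 and 74.0 FPKM at PD14, at 93.3, 92.9 and 107 FPKM at PD15 and at 100.2, 99.3 and 76.0 FPKM at PD16. Every PD15 and PD16 library lay above every PD14 library. Its log2 change to PD15 was 0.46 (SE 0.11, adjusted p = 0.110 in limma), the largest of the 45 at that day, and its change to PD16 was 0.36 (SE 0.11, adjusted p = 0.096). The clamp loader genes Rfc1 to Rfc5 had log2 changes from -0.01 (Rfc3) to 0.16 (Rfc4) at PD15 and from -0.04 (Rfc3) to 0.26 (Rfc4) at PD16. Rpa1 and Rpa2, which coat single-stranded DNA, had PD14 means of 30.0 and 20.5 FPKM and PD16 means of 28.5 and 23.6 FPKM. Lig1, the ligase that seals the lagging strand, had day means of 23.6, 25.8 and 25.2 FPKM. Fen1, the flap endonuclease, was listed lowest, at 1.92, 1.79 and 2.01 FPKM at PD14, at 2.03, 2.20 and 2.11 FPKM at PD15 and at 2.39, 3.24 and 1.996 FPKM at PD16. Its log2 change to PD16 was 0.27 (SE 0.12, adjusted p = 0.214 in limma) and 0.13 without PD16 replicate 2. The Fen1 value is uncertain, since 84.2% of its exon bases are shared with other genes, most with Gm10143.

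The genes of nucleotide supply showed larger log2 changes for Tyms and Rrm1 than for Tk1, with Dut and Rrm2 between them at PD16. Tyms, thymidylate synthase, was at 9.03, 8.15 and 9.498 FPKM at PD14, at 10.7, 11.4 and 11.7 FPKM at PD15 and at 13.1, 11.7 and 9.41 FPKM at PD16. Its log2 changes were 0.31 (SE 0.11, adjusted p = 0.212 in limma) to PD15 and 0.32 (SE 0.11, adjusted p = 0.115) to PD16. Rrm1, the large subunit of ribonucleotide reductase, was at 13.7, 13.3 and 14.1 FPKM at PD14, at 16.2, 16.8 and 17.1 FPKM at PD15, and at 18.3, 18.4 and 13.4 FPKM at PD16. PD16 replicate 3 of Rrm1 was back within the PD14 values. The small subunit gene Rrm2 overlapped between all days, with means of 17.6, 18.9 and 20.01 FPKM. Dut, which clears dUTP, had means of 31.9, 34.1 and 37.4 FPKM. Tk1, the thymidine salvage kinase, had means of 8.17, 8.26 and 7.77 FPKM.

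Of the 3 genes that rebuild chromatin behind the fork, Uhrf1 made up most of the summed level, which was 94.7 to 98.0 FPKM at PD14, 96.04 to 121 FPKM at PD15 and 90.8 to 102 FPKM at PD16, with overlapping days. Uhrf1, which brings the methyltransferase DNMT1 to newly copied DNA, was the second most abundant gene and was highest at PD15. It was at 67.4, 66.3 and 70.2 FPKM at PD14, at 88.2, 82.5 and 70.6 FPKM at PD15 and at 63.3, 71.5 and 62.9 FPKM at PD16. Its log2 change from PD15 to PD16 was -0.28 (SE 0.09, unadjusted p = 0.011, adjusted p = 0.188 in limma), the lowest of the 45 genes. Dnmt1 itself, which is not among the 45 and was singled out after its values were seen, was at 74.9, 75.5 and 75.1 FPKM at PD14, at 91.7, 88.4 and 76.0 FPKM at PD15 and at 70.4, 71.9 and 75.2 FPKM at PD16. Both genes are also known to be expressed in oocytes, and the 12 oocyte markers, all of them tested, summed to 1548 to 1922 FPKM at PD14, 1981 to 2104 FPKM at PD15 and 1430 to 1544 FPKM at PD16. The part of the oocyte share in the course of Uhrf1 was not tested. The subunits of chromatin assembly factor 1 had means of 21.7, 23.3 and 22.9 FPKM for Chaf1a and of 6.22, 6.55 and 6.45 FPKM for Chaf1b. In Chaf1a 52.5% of exon bases are shared with Ubxn6.

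The E cyclins, which drive entry into S phase, had log2 changes with a median of 0.10 at PD15 and 0.28 at PD16. Ccne2 was at 7.08, 6.68 and 6.60 FPKM at PD14, at 6.86, 7.45 and 8.27 FPKM at PD15 and at 9.60, 9.48 and 7.25 FPKM at PD16. All PD16 libraries lay above all PD14 libraries, whereas PD15 overlapped PD14. Its log2 change to PD16 was 0.32 (SE 0.10, adjusted p = 0.103 in limma). Ccne1 was at 3.66, 3.69 and 3.43 FPKM at PD14, at 3.57, 4.34 and 3.70 FPKM at PD15 and at 4.46, 5.23 and 3.75 FPKM at PD16, with the same order of days and a log2 change to PD16 of 0.25.

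**Figure D4:**
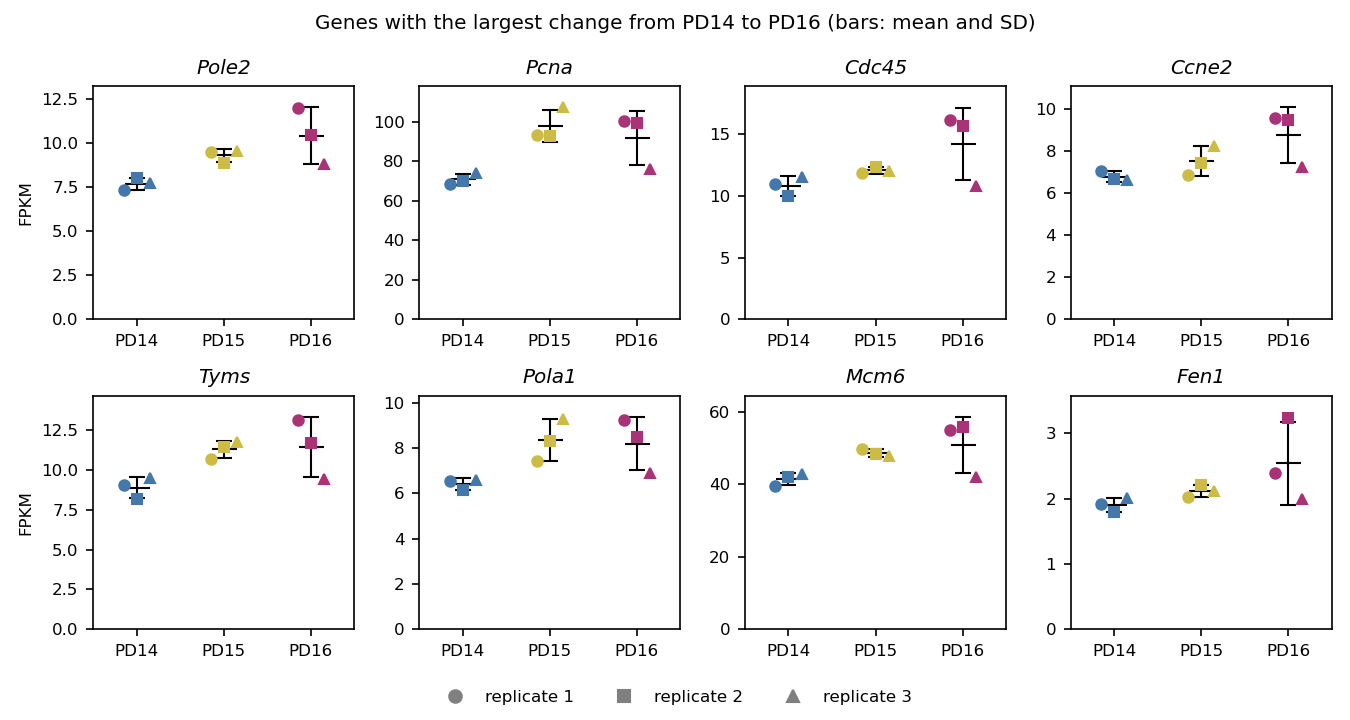
FPKM of the 8 genes with the largest log2 change from PD14 to PD16 in each library (circles, squares and triangles for replicates 1, 2 and 3), with the mean and SD of the 3 libraries of a day. In each gene PD16 replicate 3 is the lowest PD16 library, for Pcna at 76.0 FPKM against 99.3 and 100.2 FPKM.

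The spread between libraries of a day was small at PD14 and wide at PD16. The median coefficient of variation of the 45 genes was 5.14% at PD14, 7.13% at PD15 and 14.0% at PD16, whereas that of all tested genes was 7.96%, 8.47% and 8.39%. Counting error alone gave a median of 2.81% for the 45 genes, and 8.82% at most, for Fen1. At PD16 the spread was least for Orc1 (1.6%) and Chaf1a (3.0%) and greatest for Cdc6 (22.0%) and Fen1 (24.9%). With all libraries the genes deviated together within days. The correlation of deviations from the day mean had a median of 0.65 over the 990 pairs of the 45 genes and was above 0 in 93.6% of the pairs, whereas over all pairs of tested genes its median was near 0 and 50% of pairs were positive. Most of this rested on PD16 replicate 3: without it, in a comparison added after the data were seen, the median was 0.13 and 57.7% of the pairs were positive. The mean deviation of the 45 genes, in log2(FPKM + 1), was -0.20 in that library and 0.07 and 0.13 in the other PD16 libraries, and it stayed between -0.04 and 0.04 in the PD14 and PD15 libraries. These correlations rest on libraries that all pairs share and are given as a description. With all 9 libraries Cdc6 had the highest median correlation with the other members (0.79), and Orc1 (0.04) and Chaf1a (0.13) the lowest.

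Most other genes of the pathway were also higher on the later days. Of 62 further genes of licensing, fork upkeep, nucleotide and chromatin supply and S phase control, 61 were tested. Higher values were found for 51 of them at PD15 and 53 at PD16 relative to PD14, against 51.9% and 52.2% of all genes, with median log2 changes of 0.09 and 0.12. Limma called 0 at either day, and 7 and 13 had an unadjusted p under 0.05, which as shares of the 61 lie below the 14.7% and 22.8% of all genes. Of the 7, 6 were higher at PD15, and all 13 were higher at PD16. Without PD16 replicate 3 these counts stood above the background instead: limma called 4 at PD16 (Ccna2, Tfdp1, Wdhd1 and Hells; 2.65% of all genes), and 15 and 29 of the 61 had an unadjusted p under 0.05, where 15.1% and 21.7% of all genes did. PD16 replicate 3 was the lowest PD16 library in 46 of the 61 genes (75.4%), against 38.1% of all genes. The counts made without that library are therefore not independent evidence. With all libraries, the largest changes to PD16 were those of Pold4, Ccna2, Rb1 and Tfdp1. Rb1, the retinoblastoma protein that holds E2F inactive, had day means of 7.83, 9.03 and 9.94 FPKM and a log2 change to PD16 of 0.31 (SE 0.07, adjusted p = 0.051 in limma). Over all alternatives its adjusted p in limma ran from 0.039 to 0.155, and in fits without 1 library from 0.0495 to 0.155. It therefore passed the threshold in some of them. Tfdp1, the DNA-binding partner of E2F, was at 35.1, 34.5 and 34.8 FPKM at PD14 and at 46.3, 45.53 and 38.0 FPKM at PD16, with a change of 0.30 (SE 0.08, adjusted p = 0.059). Ccna2, the cyclin of S and G2 phase, was at 29.7, 30.9 and 21.6 FPKM at PD16 against a PD14 mean of 21.5 FPKM, with a change of 0.32 (SE 0.13, adjusted p = 0.178). Pold4, a small subunit of polymerase delta, had a change of -0.74 (SE 0.54, adjusted p = 0.452) that rested on PD14 replicate 3, at 5.39 FPKM, since it was at 0.359 and 0.318 FPKM in the other PD14 libraries and at 0.290 to 0.389 FPKM at PD16. Without that library Pold4 no longer passed the expression filter, and the difference of its mean log2 values was 0.22 to PD15 and 0.01 to PD16. The difference to PD15 rested in turn on PD15 replicate 2, at 1.39 FPKM, against 0.302 and 0.229 FPKM in PD15 replicates 1 and 3.

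Genes of mitosis, the later phase of the same cycle, were compared as the nearest group. Of the 25 mitosis genes tested, 22 were higher at PD15 and 24 at PD16 than at PD14 (51.9% and 52.2% of all genes), with median log2 changes of 0.09 and 0.22, beside 0.12 and 0.15 for the replication genes. The difference between the lists was not tested. Limma called 2 of the mitosis genes at PD16, Anln and Kif2c, with adjusted p-values of 0.031 and 0.030, where it called 4.25% of all genes. Without PD16 replicate 3 it called 5 (Anln, Bub1, Kif2c, Top2a and Tpx2), where it called 2.65% of all genes. The median log2 changes to PD16 were then 0.28 for the mitosis genes and 0.25 for the replication genes. PD16 replicate 3 was the lowest PD16 library in 24 of the 25 mitosis genes, against 38.1% of all genes, and their summed level there was 436 FPKM, against 533 FPKM in each of replicates 1 and 2. The mitosis genes called without this library are therefore not independent evidence either. The replication and mitosis genes also deviated together within days when all libraries were used. Their median correlation of deviations was 0.53 over 1125 pairs, and 0.05 without PD16 replicate 3.

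The cell type markers had the following levels. The 10 granulosa cell markers summed to 3285 to 3955 FPKM at PD14, 3113 to 3523 FPKM at PD15 and 3150 to 3716 FPKM at PD16, so that the sums overlapped. Most of that sum is Inha, and single markers went both ways. Limma called 2 of the 10 between PD14 and PD16, 1 higher and 1 lower, where it called 4.25% of all genes. Amh had day means of 176, 242 and 245 FPKM. The theca and interstitial markers summed to 1766 to 2410 FPKM at PD14, 1282 to 1916 FPKM at PD15 and 1293 to 1768 FPKM at PD16, with 8 of 8 tested. Blood cell markers (8 of 11 tested) summed to 110.5 to 152 FPKM at PD14, 50.9 to 68.2 FPKM at PD15 and 66.3 to 122 FPKM at PD16. Day means of the stromal markers were 668, 594 and 632 FPKM, of the endothelial markers 71.7, 65.5 and 64.0 FPKM and of the smooth muscle markers 302, 293 and 352 FPKM. Markers of oviduct and surface epithelium (5 of 9 tested) had means of 61.1, 54.3 and 46.9 FPKM, and the oviduct genes Ovgp1 and Foxj1 were at 0.348 and 0.197 FPKM at PD16. From PD14 to PD16 limma also called 3 of the 5 oviduct and surface epithelium markers lower, against 4.25% of all genes. It called 1 of 5 smooth muscle and 1 of 12 oocyte markers higher, and 0 theca, stromal, blood cell or endothelial markers. Without PD16 replicate 3 it called 2 oviduct and surface epithelium, 0 smooth muscle, 1 oocyte and 1 granulosa cell marker (2.65% of all genes). With all libraries, only 3 of the 12 oocyte markers were higher at PD16 than at PD14 (median log2 change -0.25), against 52.2% of all genes. From PD15 to PD16, 0 of the 12 were higher (53.2% of all genes), and limma called 2 lower (0.729% of all genes). From PD14 to PD15 limma called 1 oocyte marker higher and 1 blood cell marker lower (0.678% of all genes). The part of these shifts in the levels of the replication genes was not tested.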

How the data were processed

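RNA-Seq was run on 9 ovary libraries, 3 each at PD14, PD15 and PD16. Per the labels, RNA was extracted with TRIzol and 1 µg went into NEBNext Ultra libraries; the submitters' processing notes name HISAT2 2.0.5 and the mm10 genome. The counting tool and annotation are not given in the sources used here. The authors deposited FPKM per gene, with 1 table per library. Depth (20370000 to 28730000 mapped fragments) was recovered from FPKM steps with GENCODE M21 exon lengths; 94.2% to 94.7% of values of up to 20 fragments were whole within 0.02. The members and lists were chosen with earlier results of these data known. The 15495 genes whose FPKM averaged over 1 in at least 1 day were tested with limma 3.58.1 in R 4.3.3 on log2(FPKM + 1), with an intensity trend, the 9 libraries in 1 model and Benjamini-Hochberg adjustment, after a test on simulated data. Log2 changes on this scale understate those of low genes. All members were described. Full statistics were given for members with an adjusted p under 0.05 with all libraries (there were none) and for the 8 with the largest absolute log2 change to PD16. They were also given for Uhrf1 from PD15 to PD16, as the 1 member with an unadjusted p under 0.05 in limma there. Of the other pathway genes, those called and the 4 with the largest change were named. No pair of libraries was identical. The p-values measure the spread between these libraries. Alternatives changed the pseudocount, filter, scaling, variance model, samples in the fit and replicate block, or left out each library.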

Additional observations from a re-analysis of the deposited data

How the results depend on the processing

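With every library kept, 93 of 103 counts and medians were within their limits of the value reported, and 279 of 282 log2 changes of single genes kept direction and side of the threshold. The limit for a count was a fixed ratio. For a median it was 0.124, the SD of the members' median between libraries of a day. The medians reported were 0.12, 0.15 and 0.02, so those from PD14 to PD15 and from PD15 to PD16 could reach 0 within that limit. The count of all genes called moved most. From PD14 to PD15 it was 105, and 29 with no filter on low values, 59 with a mean FPKM above 5 and 47 with only the 2 days fitted. From PD14 to PD16 it was 659, and 172 with no filter and 320 with only the 2 days, and from PD15 to PD16 it was 113, and 24 with no filter. With a mean FPKM above 5, 1 replication gene was called at PD16 (Pole2, adjusted p = 0.041 in limma) in place of 0, among 602 genes called in all. That filter left out Fen1 and Ccne1, whose means over the 9 libraries were 2.19 and 3.98 FPKM. The number of genes it kept is not given here, so the call of Pole2 cannot be set against a background. With the replicate number as a block, 24, 227 and 56 genes were called in the 3 comparisons; same-numbered libraries did not deviate together (correlations from -0.214 to 0.159), so the numbers were not taken to pair the samples. Leaving out 1 library at a time gave 3 to 92, 92 to 660 and 14 to 125 genes called. Replication genes called ran from 0 to 1 at PD15 and from 0 to 8 at PD16 relative to PD14. The highest values came without PD16 replicate 3, where 0.594% and 2.65% of all genes were called. In the F test the replication genes called ran from 0 to 5, again highest without that library. The share of all genes called by that F test is not given here, so the 5 cannot be set against a background. Replication genes higher ran from 41 to 43 at PD15, 37 to 43 at PD16 and, from PD15 to PD16, 15 to 40, the lowest without PD16 replicate 2. Their median log2 change ran from 0.09 to 0.15, 0.08 to 0.25 and -0.05 to 0.13 in the 3 comparisons. Without PD16 replicate 3, the log2 change turned sign in 12 of the 45 genes from PD15 to PD16, in 2 (Rfc3 and Tk1) from PD14 to PD16 and in 0 from PD14 to PD15. Among the 12 genes given with full statistics, those that turned sign in a fit without 1 library were, from PD15 to PD16, Mcm6 (-0.0173 to 0.183), Pcna (-0.167 to 0.0303), Pola1 (-0.109 to 0.0766), Pold4 (-0.386 to 0.0921) and Tyms (-0.0949 to 0.127), and, from PD14 to PD15, Ccna2 (-0.0447 to 0.105). Pold4 could not be fitted without PD14 replicate 3, where it failed the filter. Its untested difference of means from PD14 then turned sign, to 0.22 at PD15 and 0.01 at PD16, and the PD15 value rested on PD15 replicate 2. The cause of these shifts was not tested. The depth of 99 to 9565 fragments per replication gene and library limits Fen1 most.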
